A study of Mus musculus with 12 samples.

Results

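The genes described are those that build and load MHC class I molecules: B2m, the heavy chain genes H2-K1, H2-D1, H2-T23, H2-Q7 and H2-Q8, the peptide loading genes Tap1, Tap2 and Tapbp, and the regulator gene Nlrc5. They are 10 of the 25678 genes that the arrays name, and their probes were taken by gene symbol, a rule that uses no measured value. The symbols in the deposited intensity table matched 33 probes of 9 genes. Nlrc5 is listed there under an older name, AI451557, and 1 probe was found for it through its Entrez ID, which makes 34 of the 45281 probes on the array.

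Transcripts were measured on Illumina Mouse WG6V2 BeadChips, on which each transcript is read by beads coated with one probe. The 12 samples were Lineage-Kit+CD45.2+ bone marrow cells, a sort in which blood stem cells and progenitors are concentrated. The 4 groups of 3 samples were Casp9 KO, which lacks the initiator caspase of the mitochondrial pathway of cell death; its wild-type control (WT experiment 1); Bak/Bax DKO, which lacks both proteins that open the outer mitochondrial membrane; and its own wild-type control (WT experiment 2). All donor cells, wild type included, were labelled C57BL/6 and came from embryonic day 13.5 fetal livers. They were given to a host, and the cells sorted from the resulting chimeras 12 to 16 weeks later, so that every sample had been through transplantation. The sources used here do not name the host, how the alleles were made or the strain of the DNA around them. Each knockout shared a beadchip with its own wild type. Whether each sample came from its own animal is not in the labels, so the spread behind the p-values may be technical.

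MHC class I molecules carry peptides from inside the cell to its surface, where T cells and natural killer cells read them. A heavy chain pairs with beta-2-microglobulin in the endoplasmic reticulum, the TAP transporter pumps peptides in from the cytosol, and tapasin holds the empty heavy chain beside TAP until a peptide fits. H2-K1 and H2-D1 encode classical heavy chains, H2-T23 encodes the non-classical molecule Qa-1, and H2-Q6, H2-Q7 and H2-Q8 belong to the Qa-2 family. Interferons raise the transcription of nearly all of these genes, and NLRC5 is the transactivator that acts on class I promoters in particular. Nearly all nucleated blood cells carry class I molecules.

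The promoters are shown for the members whose probes the results turn on, from 250 bases before to 50 bases after the gene start, 5′ to 3′ on the gene's strand, as RefSeq gives them on GRCm38.p6. Capitals mark matches, on either strand, to 5 short motifs: the core of the interferon-stimulated response element GAAANNGAA, the core of the class I interferon consensus GAANNGAAA, the kappa B core of the class I enhancer GGGATTCCC, the CRE-like half-site TGACG and the CCAAT box CCAAT. Of 7 members with an entry, 6 are printed, and the first of 2 overlapping entries stands for H2-K1.
H2-Q7, chr17:35438905-35439204, plus strand: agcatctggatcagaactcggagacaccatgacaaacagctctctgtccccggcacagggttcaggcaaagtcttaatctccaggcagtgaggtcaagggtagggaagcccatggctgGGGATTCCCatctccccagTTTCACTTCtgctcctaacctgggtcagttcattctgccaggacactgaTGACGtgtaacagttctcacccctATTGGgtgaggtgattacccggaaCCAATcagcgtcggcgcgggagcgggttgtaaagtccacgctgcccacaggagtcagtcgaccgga
H2-K1, chr17:34000298-34000597, minus strand: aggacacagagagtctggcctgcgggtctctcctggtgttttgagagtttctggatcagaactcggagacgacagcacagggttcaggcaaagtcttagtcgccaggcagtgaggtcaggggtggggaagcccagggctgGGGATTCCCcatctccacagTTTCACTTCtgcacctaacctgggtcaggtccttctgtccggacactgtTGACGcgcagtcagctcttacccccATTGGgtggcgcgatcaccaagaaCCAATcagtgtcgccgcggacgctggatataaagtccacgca
H2-D1, chr17:35262844-35263143, plus strand: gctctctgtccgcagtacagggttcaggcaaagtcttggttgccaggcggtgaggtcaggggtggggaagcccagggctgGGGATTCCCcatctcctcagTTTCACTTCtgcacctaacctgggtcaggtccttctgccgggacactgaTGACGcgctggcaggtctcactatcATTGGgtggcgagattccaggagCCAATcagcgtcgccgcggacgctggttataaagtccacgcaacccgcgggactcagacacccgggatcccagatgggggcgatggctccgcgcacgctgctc
H2-T23, chr17:36032652-36032951, minus strand: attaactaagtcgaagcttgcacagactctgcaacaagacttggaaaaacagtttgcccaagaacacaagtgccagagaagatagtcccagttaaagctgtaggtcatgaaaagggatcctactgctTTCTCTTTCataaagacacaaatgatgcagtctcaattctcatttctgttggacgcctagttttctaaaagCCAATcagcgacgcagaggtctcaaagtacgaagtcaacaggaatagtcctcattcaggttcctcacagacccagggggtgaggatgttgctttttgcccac
Tap1, chr17:34187306-34187605, plus strand: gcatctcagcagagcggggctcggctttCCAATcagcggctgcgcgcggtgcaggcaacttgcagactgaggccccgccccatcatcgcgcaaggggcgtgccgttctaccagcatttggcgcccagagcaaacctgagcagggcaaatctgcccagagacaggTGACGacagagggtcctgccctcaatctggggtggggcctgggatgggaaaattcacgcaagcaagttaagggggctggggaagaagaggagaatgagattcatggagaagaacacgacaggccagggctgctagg
B2m, chr2:122147437-122147736, plus strand: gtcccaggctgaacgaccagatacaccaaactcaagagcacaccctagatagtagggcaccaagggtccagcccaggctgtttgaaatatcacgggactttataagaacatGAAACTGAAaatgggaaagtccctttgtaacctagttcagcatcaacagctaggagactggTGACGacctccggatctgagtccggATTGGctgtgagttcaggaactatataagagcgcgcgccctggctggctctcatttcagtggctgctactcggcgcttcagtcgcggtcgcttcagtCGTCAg

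The promoters of H2-Q7, H2-K1 and H2-D1 share one layout. In all 3, the kappa B core GGGATTCCC is followed by TTTCACTTC, which reads as the class I interferon core on the other strand, then by TGACG and a pair of CCAAT boxes on opposite strands. Of 32851 mouse promoter windows of the same length, 0.353% hold the kappa B core, 7.52% the class I interferon core, 20.8% TGACG and 37.4% a CCAAT box. The response element core GAAANNGAA, found in 8.56% of windows, was present in B2m and H2-T23 and not in the other printed windows. Tap1 held TGACG and 1 CCAAT box and matched none of the 3 longer motifs. Tapbp, whose window is not printed, held 2 CCAAT boxes and none of the other 4 motifs. None of these matches overlapped another. A match is a string of letters in this window, not a site shown to be bound.

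Class I genes are close relatives of each other, and the labels of their probes conflict. By RefSeq accession, 10 of the 34 probes belong to another gene than the symbol in the file. The file's H2-D1 probes include 3 for H2-T23 and 2 for H2-T3, its H2-Q8 probes include 2 for H2-Q6, its H2-K1 probes include 2 for H2-Q1, and 1 of its Tapbp probes is for Zbtb22, a neighbour of Tapbp. A further 6 carry an accession that the RefSeq table does not hold. Probes are named below by their accession where it is known and otherwise by the array's own target name, and the cross-binding of class I relatives was not tested. With a detection p under 0.05 on at least 3 of the 12 arrays, 27 of the 34 probes could be tested. The other 7 were above background on no array: 1 probe each of B2m, H2-D1, H2-Q1, the H2-Q5 target and the H2-TW3 target, and both of H2-T3.

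Mean bead intensity was 321.5 to 522.0 on 11 arrays and 234.5 on Bak/Bax DKO replicate 2, which stood apart. The targeted genes were low in their knockouts. Casp9 (ILMN_1217061) was at 5.37, 5.24 and 5.48 in Casp9 KO, against 8.02, 8.99 and 8.83 in WT experiment 1 (normalized log2 intensity; change -3.25, limma adjusted p = 3e-05). Bak1 was at 4.60, 4.52 and 4.75 in Bak/Bax DKO, against 6.27, 6.59 and 6.74 in WT experiment 2 (-1.91, 0.00012), and Bax at 7.72, 8.02 and 7.91 in Bak/Bax DKO, all below the lowest WT experiment 2 array at 9.34 (-1.82, 0.00038). The other 3 Casp9 probes were above background on no array of Casp9 KO or WT experiment 1 and check nothing. Kit, on which the cells were sorted, averaged 11.79 ± 0.10 in Casp9 KO and 12.08 ± 0.06 in WT experiment 1, and 12.80 ± 0.23 in Bak/Bax DKO and 12.10 ± 0.23 in WT experiment 2 (SD, n = 3). Of 11 stem and progenitor markers 9 were measured, and Flt3 and Hlf were below background.

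On Bak/Bax DKO replicate 2, 8 of the 27 tested class I and loading probes (29.6%) lay more than 3 log2 units below the mean of Bak/Bax DKO replicates 1 and 3, against 969 of all 18867 tested probes (5.14%). The gap was -3.57 to -9.18 for these 8 and -0.96 to 0.85 for the other 19. B2m shows it most plainly. The bead intensity of its probe ILMN_2739999 was 78.5 on Bak/Bax DKO replicate 2, against 10718.9 and 10482.3 on replicates 1 and 3 of that group and 9189.7 to 12932.1 in WT experiment 2. The other probes with the gap were the second B2m probe, H2-K1 ILMN_2588139, H2-D1 ILMN_2462745, H2-T23 ILMN_1223179 and ILMN_2777471, H2-Q7 ILMN_2924419 and H2-Q6 ILMN_2495446. Other probes of the same genes had no such gap on that array: H2-D1 ILMN_2476267 read 13.20 there and 12.64 and 12.91 on the other Bak/Bax DKO arrays. Since all 4 groups share one estimate of the spread, this array also widens the error of the Casp9 comparison, and the main results are therefore given with all 12 arrays and with 11, without Bak/Bax DKO replicate 2.

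**Figure D1:**
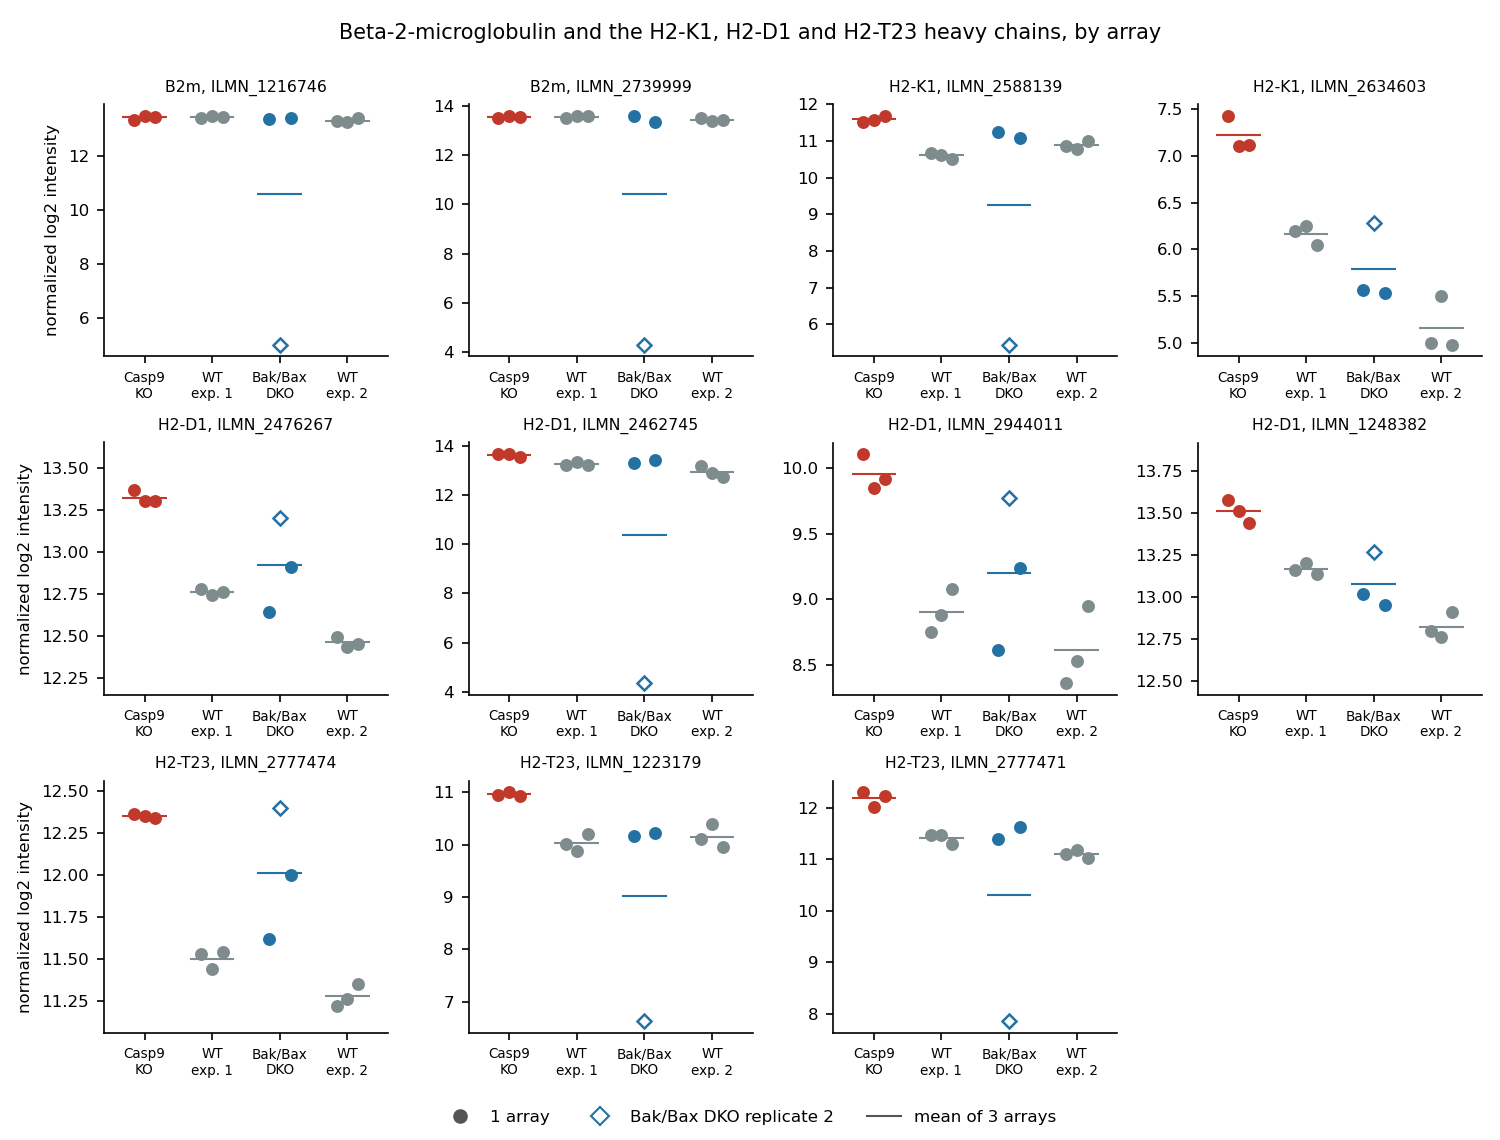
Normalized log2 intensity (vertical axis) of the tested probes of B2m, H2-K1, H2-D1 and H2-T23 on each of the 12 arrays, by group; circles are single arrays, the open diamond is Bak/Bax DKO replicate 2 and lines are means of 3 arrays. Casp9 KO arrays lie above WT experiment 1 for every heavy chain probe shown but not for B2m, and the diamond lies near the bottom of the scale for both B2m probes, which read 5.0 and 4.29 there.

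In Casp9 KO the class I genes were higher nearly throughout, and B2m, whose tested probes are very bright, was not. The Qa-2 family moved most, by 2.07-fold to 3.21-fold, the regulator Nlrc5 rose 2.34-fold and the transporter subunit gene Tap1 rose 1.93-fold. With all 12 arrays, 8 of the 27 tested probes rose and 0 fell, while 0.88% of all 18867 probes rose and 0.265% fell (1.14% in all). With 11 arrays, 18 of the 27 rose and 0 fell, while 2.48% of all probes rose and 1.78% fell (4.25% in all). The median log2 change of the 27 was 0.91, against -0.03 over all probes tested. Of those with a negative change, 0 had an unadjusted p under 0.05 in either fit: the lowest change was that of Zbtb22 (-0.15). The Casp9 KO arrays all lay above the WT experiment 1 arrays for 21 of the 27 probes, as they did for 10.4% of all probes, and all below for 0 of the 27, as for 13.4% of all probes.

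The Qa-2 family probes held the largest changes. H2-Q8 (ILMN_2951592) was at 11.42, 11.03 and 11.06 in Casp9 KO, against 9.54, 9.55 and 9.37 in WT experiment 1. The lowest knockout array was well above the highest wild-type array, and the log2 change was 1.68 (SE 0.20, adjusted p = 0.0016; 1.2e-05 with 11 arrays). H2-Q6 (ILMN_2675337) was at 10.07, 9.80 and 9.81 in Casp9 KO, against 8.67, 8.35 and 8.16 in WT experiment 1. Again the groups did not overlap, with a change of 1.5 (SE 0.16, adjusted p = 0.00054; 4.3e-05 with 11 arrays). H2-Q7 (ILMN_2771182) was at 11.47, 11.01 and 11.08 in Casp9 KO, against 9.62, 9.80 and 9.54 in WT experiment 1, a change of 1.53 (SE 0.21, adjusted p = 0.0038; 0.00019 with 11 arrays). Of the 7 probes of H2-Q6, H2-Q7 and H2-Q8, 5 rose with 12 arrays and all 7 with 11, with changes of 1.05 to 1.68 and a median of 1.5. The pair called only with 11 arrays, H2-Q6 ILMN_2495446 (1.57) and H2-Q7 ILMN_2924419 (1.16), both have the gap on Bak/Bax DKO replicate 2. The call on H2-Q7 ILMN_2651877 (1.09, adjusted p = 0.0405; 0.0020 with 11 arrays) was lost in 10 of 12 fits that each leave out 1 array, and that on ILMN_2810539 (1.05, adjusted p = 0.0100; 0.00025 with 11 arrays) in 3, without WT experiment 1 replicate 2 or 3 or Casp9 KO replicate 3.

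H2-K1, H2-D1 and H2-T23, the classical and Qa-1 heavy chains, were also higher, by less. H2-K1 (ILMN_2588139) was at 11.53, 11.58 and 11.69 in Casp9 KO, against 10.68, 10.63 and 10.51 in WT experiment 1. The groups were about 1 log2 unit apart (change 0.99) and did not overlap, and the rise was called only with 11 arrays (adjusted p = 0.955 with 12, SE 1.17; 0.0003 with 11, SE 0.12). H2-T23 (ILMN_2777474) was at 12.36, 12.35 and 12.34 in Casp9 KO, against 11.53, 11.44 and 11.54 in WT experiment 1. Each group spread over 0.1 log2 units or less, and the change was 0.85 (SE 0.17, adjusted p = 0.0458; 0.0016 with 11 arrays), a call that also was lost in 10 of the 12 fits that leave out 1 array. H2-D1 (ILMN_2476267) was at 13.37, 13.30 and 13.30 in Casp9 KO, against 12.78, 12.74 and 12.76 in WT experiment 1. This change of 0.56 was not called with 12 arrays (adjusted p = 0.111) and was with 11 (0.0141).

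Over the 9 tested probes of these 3 genes, 1 rose with 12 arrays and 7 with 11, and the changes ran from 0.34 to 1.06 with a median of 0.85. Those not called in either fit were H2-D1 ILMN_1248382 (0.34) and ILMN_2462745 (0.37), which stood at 13.44 to 13.67 in Casp9 KO. The fourth H2-D1 probe, ILMN_2944011, changed by 1.06 (adjusted p = 0.107 with 12 arrays; 0.0075 with 11), so probes of one gene differed in the size of the change. The second H2-K1 probe, ILMN_2634603, changed by 1.05 (adjusted p = 0.0529; 0.0020 with 11 arrays). A probe of the H2-Q5 target that the files place within the span of the H2-T23 probes, ILMN_2862706, changed by 0.76 (adjusted p = 0.102; 0.0019 with 11 arrays). The second H2-Q5 target probe (0.42) and H2-Q1 (0.02) were not called in either fit.

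**Figure D2:**
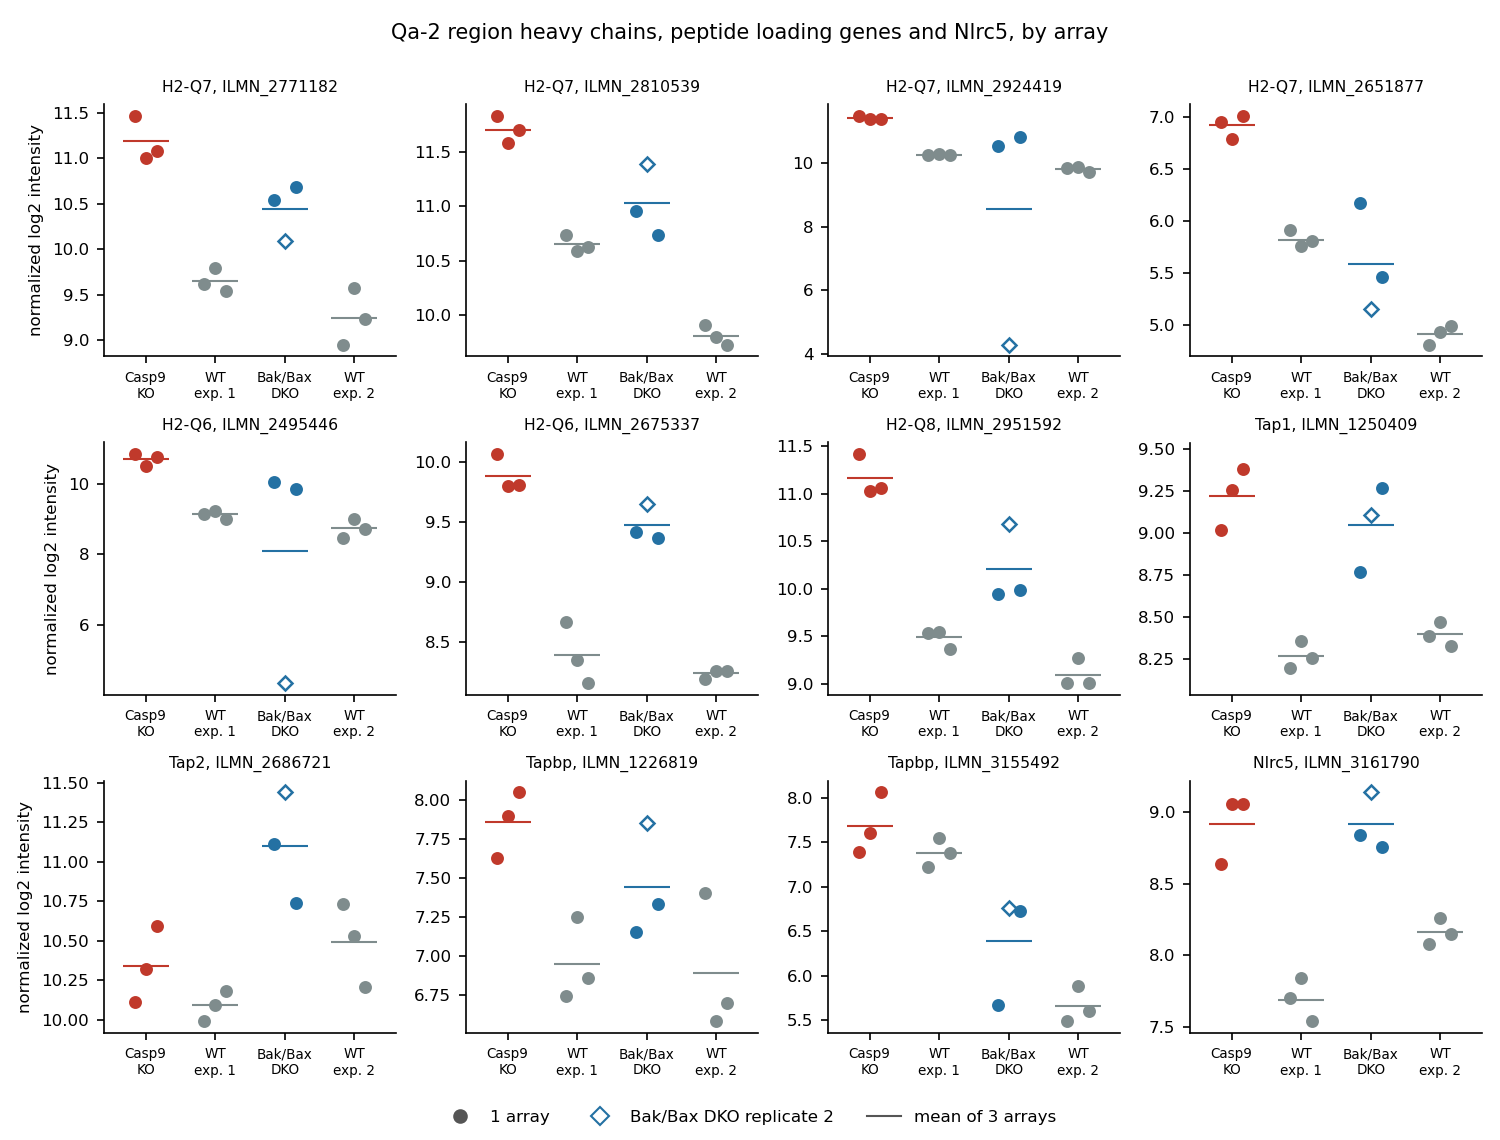
Normalized log2 intensity (vertical axis) of the tested probes of the Qa-2 family, Tap1, Tap2, Tapbp and Nlrc5 on each of the 12 arrays, by group; symbols are circles for single arrays, an open diamond for Bak/Bax DKO replicate 2 and lines for means of 3 arrays. Both knockouts lie above their own wild type for H2-Q8, H2-Q6 ILMN_2675337, Tap1 and Nlrc5, with no overlap.

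The peptide loading genes did not all follow the heavy chains. Tap1, which encodes one subunit of the TAP peptide pump, was at 9.02, 9.26 and 9.38 in Casp9 KO, against 8.20, 8.36 and 8.26 in WT experiment 1, with no overlap. Its change was 0.94 (SE 0.15, adjusted p = 0.0127; 0.0031 with 11 arrays), and the call was lost without Casp9 KO replicate 3 or any 1 of the WT experiment 1 arrays. Tap2, for the other subunit, was at 10.11, 10.32 and 10.59 in Casp9 KO, against 9.99, 10.09 and 10.18 in WT experiment 1. These groups overlapped, and the change of 0.25 was not called (adjusted p = 0.851; 0.512 with 11 arrays). The difference between Tap1 and Tap2 was not tested. Tapbp, the tapasin gene, has 2 probes that disagreed. ILMN_1226819 changed by 0.91 with no overlap (adjusted p = 0.161; 0.0319 with 11 arrays), and ILMN_3155492 by 0.30 with overlap (adjusted p = 0.907; 0.611 with 11 arrays).

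Nlrc5, the transactivator of class I genes, was at 8.64, 9.06 and 9.06 in Casp9 KO, against 7.70, 7.84 and 7.54 in WT experiment 1. The change was 1.23 (SE 0.16, adjusted p = 0.0031; 0.00025 with 11 arrays), and its call held in each of the 12 fits that leave out 1 array, as did those of H2-Q8, H2-Q6 ILMN_2675337 and H2-Q7 ILMN_2771182. Nlrc5 lies on chromosome 8, apart from the MHC. B2m, the light chain shared by all class I molecules, lies on chromosome 2. Its probe ILMN_2739999 was at 13.50, 13.61 and 13.55 in Casp9 KO, against 13.50, 13.60 and 13.58 in WT experiment 1, and the other tested probe was as close. The groups overlapped fully, with changes of -0.00 and -0.01 (SE 0.11 each with 11 arrays). On average over the 12 arrays, Bak/Bax DKO replicate 2 included, only 0.601% and 0.647% of all probes were brighter than these B2m probes. How well a rise can be read at that level was not tested. In WT experiment 1 the tested B2m probes averaged 13.46 and 13.56. The H2-D1 probes ILMN_1248382, ILMN_2462745 and ILMN_2476267 were less bright there, at 13.17, 13.26 and 12.76, and changed by 0.34, 0.37 and 0.56.

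In Bak/Bax DKO the probes called were those of the Qa-2 family and, with 12 arrays only, Nlrc5. With 11 arrays the log2 changes of its 7 probes ran from 0.86 to 1.37, and those of the 9 H2-K1, H2-D1 and H2-T23 probes from 0.04 to 0.53 with none called. With 12 arrays they ran from -1.27 to 1.24 (5 of 7 above 0) and from -2.56 to 0.73 (5 of 9 above 0). With all 12 arrays, 5 of the 27 tested probes rose and 0 fell, while 1.43% of all 18867 probes rose and 0.392% fell (1.82% in all). With 11 arrays, 7 of the 27 rose and 0 fell, while 1.78% of all probes rose and 1.2% fell (2.98% in all). These 7 are the 7 probes of H2-Q6, H2-Q7 and H2-Q8. Among them H2-Q7 ILMN_2924419 and H2-Q6 ILMN_2495446 turned from -1.27 and -0.65 with 12 arrays (adjusted p = 0.646 and 0.808) to 0.86 and 1.23 with 11 (0.0031 and 0.0018), so their direction rests on 1 array. The median of the 27 changes was 0.49 with 12 arrays and 0.44 with 11, against 0.08 and -0.01 over all probes tested. Every Bak/Bax DKO array lay above every WT experiment 2 array for 12 of the 27 probes, as for 11.8% of all probes; without Bak/Bax DKO replicate 2 this held for 18 of the 27 and for 15% of all probes. All Bak/Bax DKO arrays lay below the wild type for 0 of the 27 in both cases, as for 5.54% and 14.4% of all probes.

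H2-Q6 (ILMN_2675337) was at 9.42, 9.65 and 9.37 in Bak/Bax DKO, against 8.19, 8.26 and 8.26 in WT experiment 2. All 3 knockout arrays, replicate 2 included, lay more than 1 log2 unit above the wild type, and the change was 1.24 (SE 0.16, adjusted p = 0.0030; 1.16 and 0.0018 with 11 arrays). H2-Q7 (ILMN_2810539) was at 10.96, 11.39 and 10.74 in Bak/Bax DKO, against 9.91, 9.80 and 9.73 in WT experiment 2. The groups again did not overlap, with a change of 1.22 (SE 0.17, adjusted p = 0.0048; 1.03 and 0.0012 with 11 arrays). The calls on these 2 probes held in each of the 12 fits that leave out 1 array. H2-Q7 ILMN_2771182 rose by 1.19 (adjusted p = 0.0172; 1.37 and 0.0019 with 11 arrays). H2-Q8 rose by 1.11 (adjusted p = 0.0199; 0.87 and 0.0081 with 11 arrays). Each of these last calls was lost in 3 of the 12 fits that leave out 1 array: that on ILMN_2771182 without WT experiment 2 replicate 1 or 3 or Bak/Bax DKO replicate 3, and that on H2-Q8 without any 1 of the WT experiment 2 arrays. When the 6 arrays of this comparison were fitted alone, 0 of the 27 probes and 39 of all 18867 were called.

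None of the probes taken by symbol for H2-K1, H2-D1 and H2-T23 was called in Bak/Bax DKO. H2-K1 (ILMN_2588139) was at 11.24, 5.44 and 11.09 in Bak/Bax DKO, against 10.86, 10.79 and 11.01 in WT experiment 2. The change was -1.63 with 12 arrays and turned to 0.28 with 11 (adjusted p = 0.493 and 0.324), so its direction rests on 1 array. H2-T23 (ILMN_2777474) was at 11.62, 12.40 and 12.00 in Bak/Bax DKO, against 11.22, 11.26 and 11.35 in WT experiment 2. The groups did not overlap, but the change of 0.73 was not called (adjusted p = 0.0667; 0.53 and 0.0583 with 11 arrays). With limma, 0 of the 9 probes of H2-K1, H2-D1 and H2-T23 were called in either fit, while 4 with 12 arrays and 5 with 11 had an unadjusted p under 0.05. With 11 arrays all 9 changes were above 0, from 0.04 to 0.53 with a median of 0.32.

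Among the loading genes and the regulator in Bak/Bax DKO, Nlrc5 came nearest to a steady change. It was at 8.84, 9.14 and 8.76 in Bak/Bax DKO, against 8.08, 8.26 and 8.15 in WT experiment 2, with no overlap. The change of 0.75 was called with 12 arrays (SE 0.16, adjusted p = 0.0460) and not with 11 (0.64, adjusted p = 0.0538), and of the 12 fits that leave out 1 array only that without Casp9 KO replicate 1 kept the call. Tap1 was at 8.77, 9.11 and 9.27 in Bak/Bax DKO, against 8.39, 8.47 and 8.33 in WT experiment 2. These too did not overlap, and the change of 0.65 was not called (SE 0.15, adjusted p = 0.0667; 0.62 and 0.0672 with 11 arrays). Tap2 (0.61; 0.44 with 11 arrays) and the 2 Tapbp probes (0.55 and 0.73; 0.35 and 0.54 with 11 arrays) were not called in either fit. B2m changed by -2.72 and -3.04 with 12 arrays and by 0.08 and 0.02 with 11, and was called in neither.

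**Figure D3:**
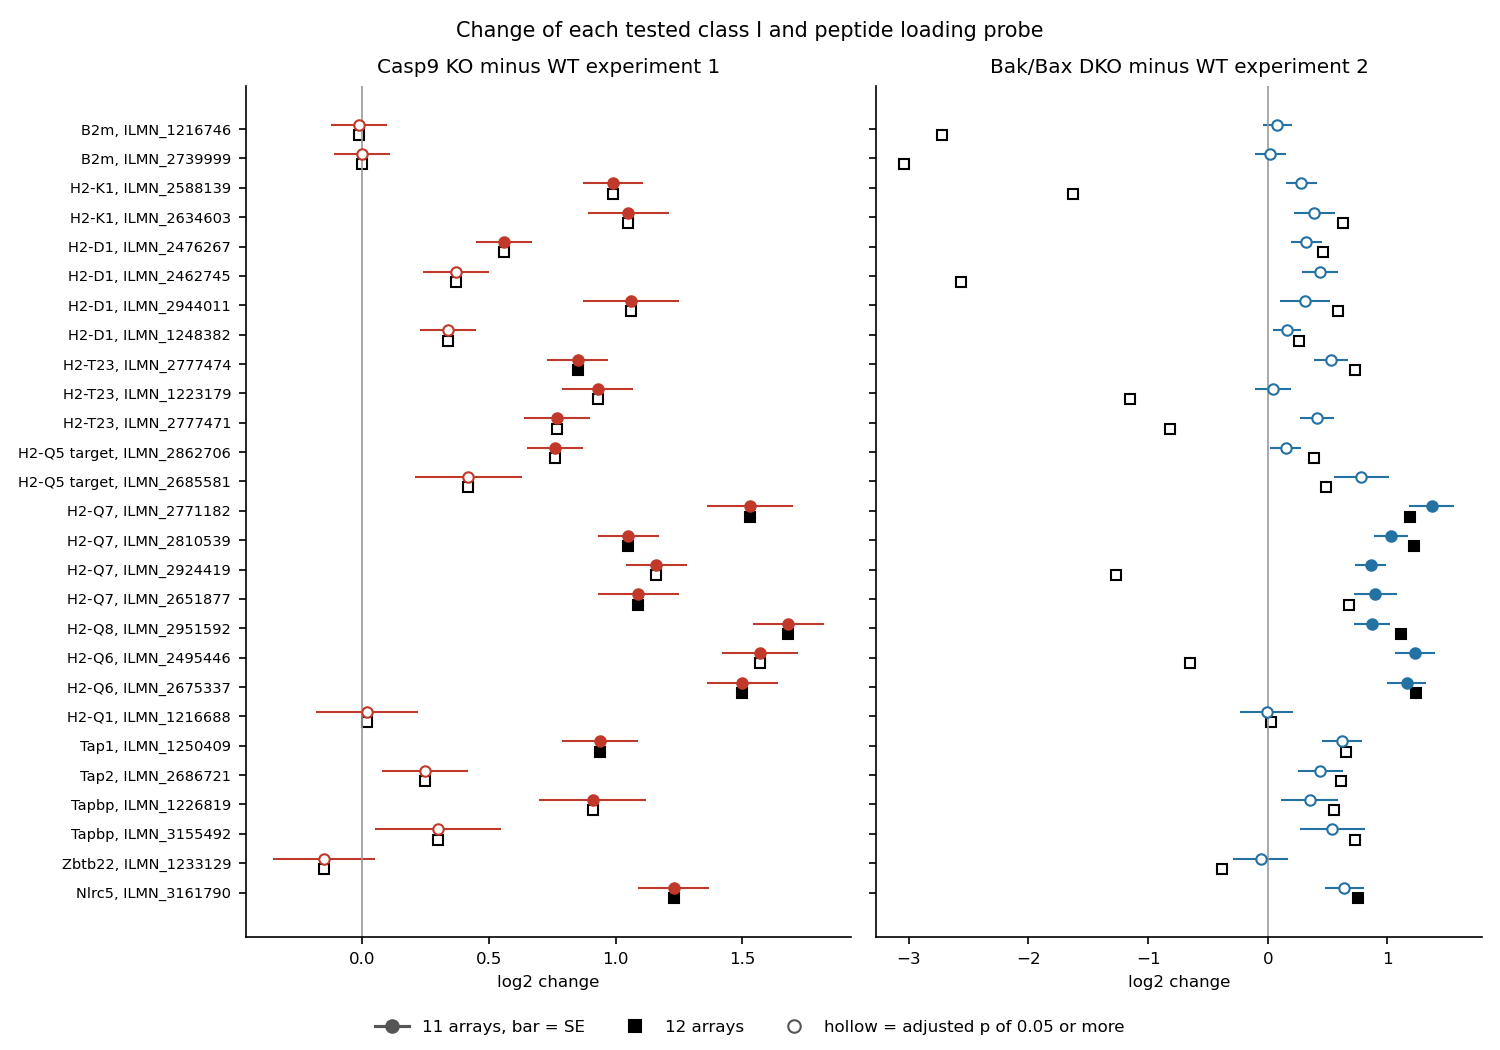
Log2 change (horizontal axis) of each of the 27 tested probes in Casp9 KO (left) and Bak/Bax DKO (right), each minus its own wild type; circles with SE bars are the fit of 11 arrays, squares the fit of 12, and filled symbols have an adjusted p under 0.05. The 7 Qa-2 family probes are filled in both panels with 11 arrays. In the right panel the squares of the 8 probes with a gap on Bak/Bax DKO replicate 2 lie below 0, from -3.04 to -0.65.

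The 2 knockout effects share no arrays, and their difference was tested directly. With all 12 arrays, 0 of the 27 probes differed between the knockouts with limma, and 0 had an unadjusted p under 0.05, while 1.49% of all probes were called, 0.631% with the higher change in Casp9 KO and 0.859% with the lower. With 11 arrays, 3 of the 27 differed, each with the larger change in Casp9 KO, while 5.28% of all probes were called, 3.03% in that direction and 2.25% in the other. H2-T23 ILMN_1223179 changed by 0.93 in Casp9 KO and 0.04 in Bak/Bax DKO, a difference of 0.89 (SE 0.21, adjusted p = 0.0285). H2-K1 ILMN_2588139 changed by 0.99 and 0.28, a difference of 0.71 (SE 0.18, adjusted p = 0.0363). H2-Q8 changed by 1.68 and 0.87, a difference of 0.81 (SE 0.21, adjusted p = 0.0411). Of these probes, H2-T23 ILMN_1223179 and H2-K1 ILMN_2588139 have the gap on Bak/Bax DKO replicate 2, where they read 6.63 and 5.44. Other probes of H2-T23 and H2-K1 had differences of 0.31 to 0.66 that were not called, so these calls do not extend to each gene as a whole. For H2-Q7 the 4 differences were 0.02 to 0.30 and were not called. The knockouts were hybridized on different beadchips in different experiments, and genotype and beadchip cannot be told apart in this contrast.

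All heavy chain genes of the list, Tap1, Tap2 and Tapbp lie on chromosome 17, as does Bak1. By the positions in the files, whose genome build the labels and headers do not name, the tested members lie 6.90 to 9.01 Mb from the Bak1 probe. DNA near a targeted gene can stay that of the strain in which the allele was made, and a probe that meets a strain difference can read higher or lower for that reason; whether that is so here was not tested. By symbol, 264 tested probes between Bak1 and the farthest member belong to no class I, class II or immunoproteasome gene. They include Gm10499 and Gm8909, which lie among the H2 genes, at 6.96 and 9.15 Mb. Of the 264, 2 were higher and 2 lower in Bak/Bax DKO with 12 arrays (1.52%). With 11 arrays 5 were higher and 4 lower (3.41%). On all other chromosomes 1.69% and 2.75% of probes were called in the same comparison, and on the rest of chromosome 17 3.82% and 6.41%. The rest of chromosome 17 takes in the DNA on the other side of Bak1. Among members in the interval, 4 of 23 (17.4%) were called with 12 arrays and 7 of 23 (30.4%) with 11. All 315 tested probes of the interval also take in other class I, class II and immunoproteasome genes. Of these 315, 14 were higher and 2 lower in Bak/Bax DKO with 12 arrays (5.08%), and 23 and 4 with 11 (8.57%). In Casp9 KO 4.44% and 12.4% of the 315 were called. There 0.611% and 3.05% of probes were called on the rest of chromosome 17, and 1.11% and 4.15% on all other chromosomes.

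The same interval can be read in Casp9 KO, whose targeted gene lies on chromosome 4. There 7 of the 23 members (30.4%) were called with 12 arrays and 17 (73.9%) with 11, while 2 (0.758%) and 9 (3.41%) of the 264 other probes were. Among those other probes, the largest rise in Bak/Bax DKO was that of Ltb, the lymphotoxin beta gene (2.26, adjusted p = 0.0014; 2.03 and 0.00035 with 11 arrays), and the largest fall was that of Rab44 (-2.19, adjusted p = 0.0087; -1.73 and 0.00039 with 11 arrays). Both were chosen after their values were seen. In Casp9 KO with 11 arrays Ltb changed by 0.19 and Rab44 by 0.05, neither called.

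**Figure D4:**
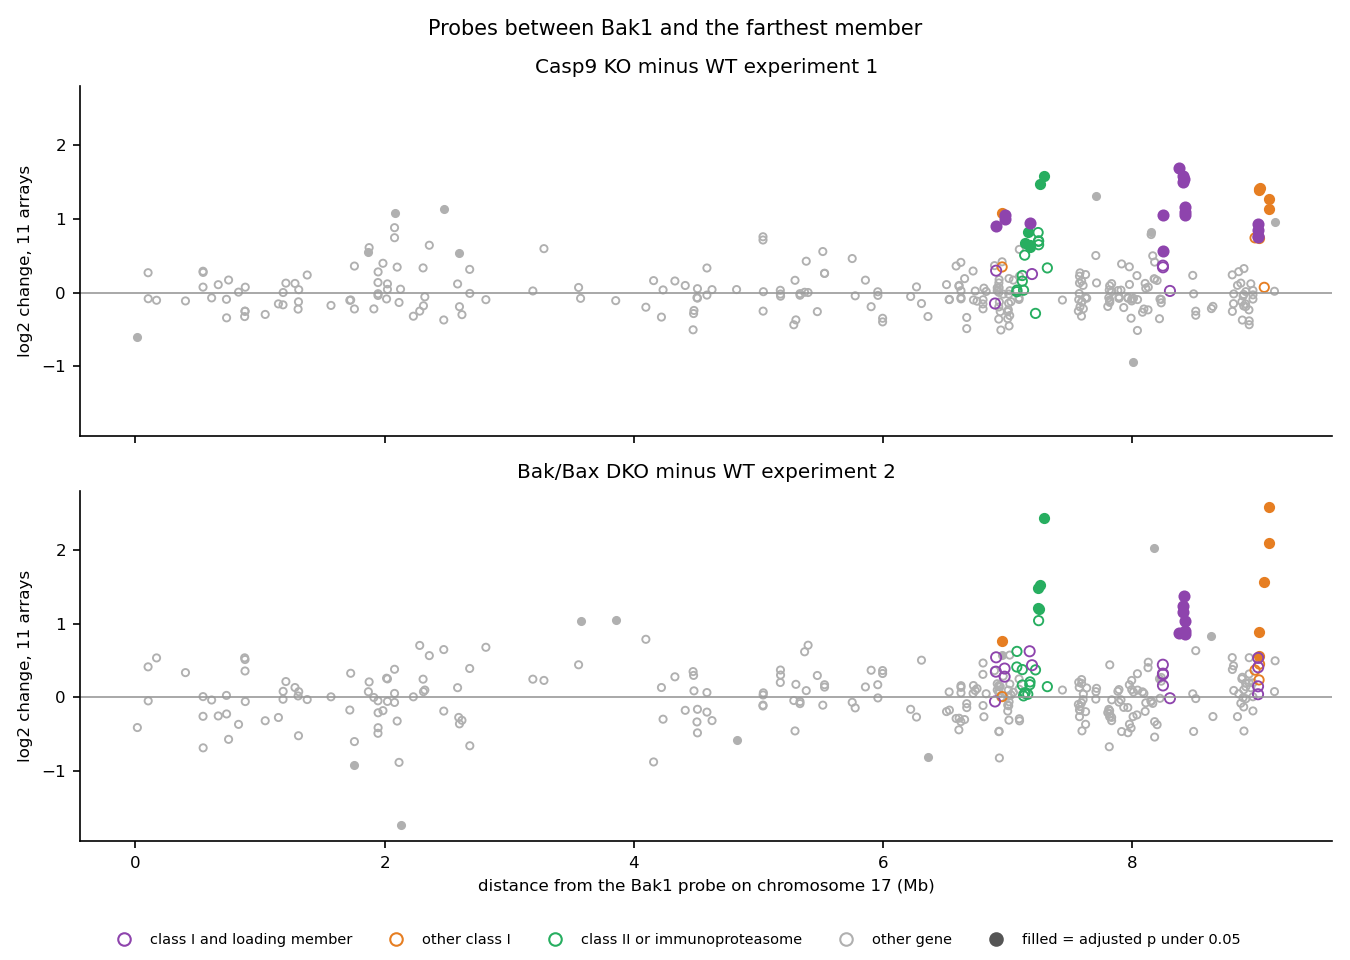
Log2 change without Bak/Bax DKO replicate 2 (vertical axis) of each tested probe between Bak1 and the farthest member, against its distance from the Bak1 probe in Mb (horizontal axis), in Casp9 KO (top) and Bak/Bax DKO (bottom), each minus its own wild type; filled points have an adjusted p under 0.05. Called members cluster at 6.9 to 9.0 Mb in the top panel, and in the bottom panel the 7 called members are the Qa-2 family probes near 8.4 Mb.

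Other genes of the pathway were taken from lists, with 1 probe per gene. Of 5 immunoproteasome and activator genes, which encode the proteasome parts that cut peptides for class I, 1 rose in Casp9 KO with 12 arrays and 2 with 11. Psmb9, a catalytic subunit, rose by 0.82 (adjusted p = 0.0498; 0.0027 with 11 arrays), and Psmb8, another, by 0.62 with 11 arrays (0.0159; 0.9997 with 12). In Bak/Bax DKO 0 of the 5 were called in either fit; Psmb10 had the smallest p with 12 arrays (0.55, unadjusted p = 0.0204). Of 11 measured loading chaperone and peptide trimming genes, 0 were called in Casp9 KO with 12 arrays and 2 rose with 11: Tapbpl, a tapasin relative that edits peptides (0.77, adjusted p = 0.0067), and Hspa5, the chaperone BiP (0.62, adjusted p = 0.0324). Both had an unadjusted p under 0.05 with 12 arrays (0.0034 and 0.0217). In Bak/Bax DKO 0 of the 11 were called; the peptidase gene Lnpep (-0.72, adjusted p = 0.0609) and Sec61b, a part of the translocon (-0.96, adjusted p = 0.181), had an unadjusted p under 0.05.

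Of 13 measured class I or class I-like heavy chain genes beyond the members, 2 rose in Casp9 KO with 12 arrays and 4 with 11, and 3 rose in Bak/Bax DKO with 12 arrays and 5 with 11; 0 fell. These counts take in H2-Q6, whose probes are among those described above. H2-T10, whose product is a ligand of gamma delta T cells, rose by 1.27 in Casp9 KO and by 2.29 in Bak/Bax DKO (adjusted p = 0.0032 and 7.9e-05; 3.2e-05 and 1.5e-06 with 11 arrays). H2-M3, which presents formylated peptides, rose by 1.19 in Casp9 KO (adjusted p = 0.0257; 7.1e-05 with 11 arrays) and changed by -0.11 in Bak/Bax DKO (adjusted p = 0.829; -0.40 and 0.147 with 11 arrays). Fcgrt, the neonatal Fc receptor gene, rose by 1.60 in Bak/Bax DKO (adjusted p = 0.0104; 0.0071 with 11 arrays) and changed by -0.01 in Casp9 KO. Fcgrt lies on chromosome 7, as does the targeted gene Bax, and whether DNA around Bax plays a part in its rise was not tested. H2-Bl rose by 1.56 in Bak/Bax DKO (adjusted p = 0.00022; 9.5e-05 with 11 arrays), from 4.32 in WT experiment 2 to 5.88. It was at 4.40 in Casp9 KO and 4.33 in WT experiment 1. B2m ILMN_2670561, a probe above background on no array, averaged 4.36 in Casp9 KO, 4.40 in WT experiment 1 and 4.35 in WT experiment 2. The rise of H2-Bl thus starts near background, and its probe may have passed the detection filter through Bak/Bax DKO alone. The size of the rise and its p-value are to be read with that limit. By the files' positions H2-T10 and H2-Bl lie on chromosome 17, 9.10 and 9.06 Mb from the Bak1 probe. Whether strain differences near Bak1 play a part in their rises was not tested.

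Among transcription factors of class I genes, Irf1, which binds class I promoters, changed by 0.64 in Casp9 KO and was not called (adjusted p = 0.9997; 0.0816 with 11 arrays). Irf8, a factor of the same family, changed by 0.61 in Casp9 KO and by -0.66 in Bak/Bax DKO, and neither change was called (adjusted p = 0.238 and 0.136; 0.0875 and 0.0840 with 11 arrays).

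The genes most like Tap1 over the 12 arrays were Serpina3f (Pearson r = 0.952), Epsti1 (0.950), Serpina3g (0.950), Irgm2 (0.945) and Gbp2 (0.942), and over 11 arrays their r was 0.937 to 0.957. The genes most like B2m over 12 arrays were Rpl27, Rpl37, Tuba1b, Eef1a1 and mt-Nd4, all at 1.000. Over 11 arrays their r was 0.531 to 0.710. These values describe arrays that share genotype groups, beadchips and one normalization.

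Markers of other cell types moved with these results. In bulk samples a change in the share of a cell type and a change of RNA per cell cannot be told apart. Of 5 MHC class II genes, 4 were measured and Ciita was below background; their summed normalized intensity, on the linear scale, was 1418 to 1915 in Casp9 KO and 722 to 1002 in WT experiment 1, and 2649 to 8405 in Bak/Bax DKO (2649 to 5119 without replicate 2) and 866 to 1394 in WT experiment 2. Among the class II genes, H2-Ab1, H2-Aa and H2-Eb1 lie on chromosome 17, 7.25 to 7.30 Mb from the Bak1 probe, and Cd74 lies on chromosome 18. Whether strain differences near Bak1 play a part in the class II sum was not tested. Of 9 monocyte, macrophage and dendritic markers, 7 were measured, with Itgax and Flt3 below background. They summed to 3214 to 4338 in Casp9 KO and 1802 to 2154 in WT experiment 1, and to 1979 to 2628 in Bak/Bax DKO (1979 to 1997 without replicate 2) and 2826 to 3435 in WT experiment 2. Of 8 B lymphoid markers 6 were measured, and Ms4a1 and Pax5 were below background. They summed to 1035 to 1147 in Casp9 KO and 913 to 1147 in WT experiment 1, and to 613 to 926 in Bak/Bax DKO (613 to 659 without replicate 2) and 1053 to 1508 in WT experiment 2. Of 8 T and NK markers Cd3e, Cd3g, Cd8a, Gzma and Gzmb were below background. The other 3 summed to 6775 to 6976 in Casp9 KO and 4743 to 5778 in WT experiment 1, and to 1333 to 3295 in Bak/Bax DKO (1333 to 1806 without replicate 2) and 4378 to 5405 in WT experiment 2. That sum is nearly all Nkg7, which averaged 12.72 in Casp9 KO on the log2 scale, against 7.16 for Lck and 4.75 for Klrb1c. With 12 arrays Nkg7 changed by 0.42 in Casp9 KO, not called, and by -1.45 in Bak/Bax DKO (limma adjusted p = 0.0273). Lck and Klrb1c changed by 0.40 and 0.32 in Bak/Bax DKO, neither called. The 9 measured stem and progenitor markers summed to 7034 to 8756 in Casp9 KO and 8608 to 9536 in WT experiment 1, and to 13102 to 17772 in Bak/Bax DKO (13102 to 14924 without replicate 2) and 7719 to 9496 in WT experiment 2. Their sum was thus well above wild type in Bak/Bax DKO and not in Casp9 KO. The 6 measured neutrophil markers summed to 40559 to 50273 in Casp9 KO and 40365 to 47979 in WT experiment 1, and to 20736 to 41242 in Bak/Bax DKO (34271 to 41242 without replicate 2) and 50846 to 51601 in WT experiment 2. In 5 of these 6 sums Bak/Bax DKO replicate 2 was the highest array of its group, and in the neutrophil sum it was the lowest. On that array the probes of Elane and S100a8 read 4.24 and 4.23, against means of 13.70 and 13.56 in WT experiment 2. Mpo, Ltf, Camp and S100a9 read above their group means there. The low neutrophil sum of that array thus rests on Elane and S100a8, which were low there as B2m was. The part of these markers in the class I changes was not tested.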

How the data were processed

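The authors deposited bead intensity per probe and array without normalization, a detection score beside each value, and normalized log2 values. The submitters' processing notes name GenomeStudio and limma, without versions. The deposited score is headed as a p-value but rises with intensity, so the detection p was taken as 1 minus the score. The deposited log2 values lie within 0.0197 of normexp background correction (offset 16) with quantile normalization of the intensities by limma's neqc.

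Here limma 3.58.1 in R 4.3.3 was fitted to the deposited log2 values of 12 arrays as 4 group means (8 residual degrees of freedom). Probes above background (detection p under 0.05) on at least 3 arrays, 18867 of 45281, were tested, each probe on its own. Tests were two-sided, with eBayes variances and Benjamini-Hochberg adjustment over all tested probes, and an adjusted p under 0.05 was called. The genes named were the 10 members, the 3 targeted genes, up to 4 genes of each pathway list by smallest p, and the 5 genes most like Tap1 and B2m. The genes, like the lists, were chosen with earlier results of these data known, although the rule for their probes uses symbols alone. Part of the list of class I regulators is not reported here. Marker levels are sums of the normalized values on the linear scale. Alternatives changed the background correction, filter, probe choice, array weights, samples fitted and replicate block. The number of arrays limits the precision.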

Additional observations from a re-analysis of the deposited data

Results flagged for a closer look

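In 3 probes the effect of the 2 knockouts differed by the test of the difference itself, without Bak/Bax DKO replicate 2. The log2 change in Casp9 KO exceeded that in Bak/Bax DKO by 0.89 for H2-T23 ILMN_1223179, by 0.81 for H2-Q8 ILMN_2951592 and by 0.71 for H2-K1 ILMN_2588139. With all 12 arrays these differences were 2.08, 0.57 and 2.62 and were not called (limma adjusted p = 0.372, 0.365 and 0.488). In both fits the difference was positive for the 3 probes. The H2-T23 and H2-K1 probes, but not the H2-Q8 probe, have the gap on Bak/Bax DKO replicate 2. Of the 12 fits that leave out 1 array, only that without Bak/Bax DKO replicate 2 called them, and the adjusted p over these fits ran from 0.029 to 0.56 for the H2-T23 probe, from 0.041 to 0.59 for H2-Q8 and from 0.036 to 0.63 for the H2-K1 probe. The cause was not tested.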

How the results depend on the processing

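Of the 27 tested probes, 8 were called in Casp9 KO; this was 6 with no detection filter, 8 with neqc, with median-centred intensity and with the filter at 6 arrays, 5 of 13 genes with 1 probe per gene, 15 with array weights, 18 in a fit of its own 6 arrays, and 4 to 18 over the fits that leave out 1 array (18 without Bak/Bax DKO replicate 2; 4 without WT experiment 1 replicate 2 or 3 or Casp9 KO replicate 3; 5 without WT experiment 1 replicate 1). The 5 called in Bak/Bax DKO became 1 with median-centred intensity, 3 of 13 with 1 probe per gene, 6 with array weights, 0 in a fit of its own 6 arrays, and 2 to 8 over the leave-one-out fits (2 without WT experiment 2 replicate 1 or 3, 3 without WT experiment 2 replicate 2 or Bak/Bax DKO replicate 3, 8 without Bak/Bax DKO replicate 1). The 0 that differed between knockouts became 1 with median-centred intensity, 2 with array weights and 0 to 3 over the leave-one-out fits, with 3 without Bak/Bax DKO replicate 2. In all settings 0 probes fell. Over all 18867 probes the counts were 216, 344 and 281 with 12 arrays, 802, 562 and 997 without Bak/Bax DKO replicate 2, and 1184, 554 and 1078 with array weights. They were 217, 344 and 282 with neqc and 162, 186 and 218 with median-centred intensity. The filter at 6 arrays gave 186, 302 and 226 of 16902, no filter 192, 267 and 206 of 45281. With 1 probe per gene they were 177, 257 and 243 of 11787. Fits of 6 arrays gave 640 and 39. The leave-one-out fits gave 111 to 802, 133 to 571 and 104 to 997. The labels do not say whether replicate numbers pair the samples, and the values do not settle it. Deviations of same-numbered arrays correlated at -0.0752 to 0.204 in experiment 1 and 0.0472 to 0.114 in experiment 2. A fit with the replicate number as a block called 4, 3 and 0 of the 27, and 131, 158 and 102 of all probes. In experiment 2, but not in experiment 1, every knockout array correlated best with its own number, a hint from the data and not the design.

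Signs turned for probes that were not called with 12 arrays, of which H2-Q7 ILMN_2924419 and H2-Q6 ILMN_2495446 in Bak/Bax DKO were called at their upper ends; the cause was not tested. With array weights the Bak/Bax DKO change became 0.10 for H2-K1 ILMN_2588139, 0.20 for H2-D1 ILMN_2462745, 0.26 for H2-T23 ILMN_2777471, 0.63 for H2-Q7 ILMN_2924419, 1.07 for H2-Q6 ILMN_2495446, -0.07 for H2-Q1 and 0.16 for Zbtb22, and the Casp9 KO change 0.00 for both B2m probes and -0.01 for H2-Q1. With median-centred intensity H2-D1 ILMN_1248382 was at -0.15 in Bak/Bax DKO. Over the leave-one-out fits the Casp9 KO changes ran from -0.04 to 0.03 for B2m ILMN_1216746, -0.04 to 0.02 for ILMN_2739999 and -0.09 to 0.23 for H2-Q1. The Bak/Bax DKO changes ran from -4.13 to 0.08 for B2m ILMN_1216746, -4.63 to 0.02 for ILMN_2739999, -2.62 to 0.28 for H2-K1 ILMN_2588139, -4.09 to 0.44 for H2-D1 ILMN_2462745, -1.76 to 0.04 for H2-T23 ILMN_1223179, -1.49 to 0.41 for ILMN_2777471, -2.40 to 0.86 for H2-Q7 ILMN_2924419, -1.63 to 1.23 for H2-Q6 ILMN_2495446 and -0.13 to 0.13 for H2-Q1. Their upper ends, H2-Q1 apart, are the values without Bak/Bax DKO replicate 2. Probes of class I relatives may bind each other's transcripts, and probes dim in a group carry little of their signal above background.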

Other observations

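An H2-K1 probe outside the symbols used (ILMN_2795520, target H2-K1, listed as H2-Tw3) was at 9.30, 9.15 and 9.29 in Casp9 KO, against 8.09, 8.14 and 8.26 in WT experiment 1. It was at 8.33, 8.17 and 8.38 in Bak/Bax DKO, against 7.71, 7.62 and 7.44 in WT experiment 2. Neither pair of groups overlapped, and Bak/Bax DKO replicate 2 was close to the other arrays of its group. The difference of the knockout effects was 0.38 with 12 arrays and 0.32 with 11, and was not called (limma adjusted p = 0.34 and 0.35). The probe was picked after its values were seen. It rose by 1.08 in Casp9 KO (SE 0.12, limma adjusted p = 0.0012; 0.00014 with 11 arrays) and by 0.71 in Bak/Bax DKO (SE 0.12, adjusted p = 0.017; 0.77 and 0.0071 with 11 arrays), while the H2-K1 probes described above were not called in Bak/Bax DKO.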
